A study of Mus musculus with 4 samples.

Results

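Described here are the genes for the receptors, co-receptors and ligands of the vascular endothelial growth factor (VEGF) system. The 9 genes were chosen by symbol from the 18373 genes of a table of RNA-seq values. They were 3 receptors (Kdr, Flt1 and Flt4), 2 neuropilins (Nrp1 and Nrp2) and 4 ligands (Vegfa, Vegfb, Vegfc and Pgf). All 9 were in the table and passed the filter on low counts. Each library was made from primary liver sinusoidal endothelial cells (LSECs), the fenestrated cells that line the hepatic sinusoids. They were taken from livers of 8-week-old Balb/c mice by enzymatic perfusion, a density gradient and anti-CD146 magnetic beads. The cells were cultured for 24 h on collagen and then kept for 48 h with siRNA, and the labels place them at day 3. NC denotes cells given the control siRNA (2 libraries). siAirn denotes cells given siRNA against Airn, a long noncoding RNA (2 libraries, named siAirn1_1 and siAirn1_2). The study asked what loss of Airn does to these cells. The study's methods speak of separate siAirn, whereas these names do not settle whether both libraries received the same siRNA. The labels call the replicates biological but do not say whether they came from separate animals or cultures, so the p-values measure the spread between these libraries.

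VEGF ligands are secreted dimers that bind receptor tyrosine kinases on endothelial cells. VEGF-A acts mainly through VEGFR2, the product of Kdr. VEGFR1, the product of Flt1, binds VEGF-A, VEGF-B and placental growth factor, and also exists as a soluble form that traps ligand. VEGF-C acts mainly through VEGFR3, the product of Flt4, which is best known from lymphatic endothelium and is also made by LSECs. Neuropilins bind VEGF and class 3 semaphorins and strengthen the signal of their partner receptors. In the liver, VEGF-A from neighbouring cells helps to keep LSECs fenestrated.

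The libraries held between 17308382 and 18371959 estimated counts. Of 13628 genes tested, 2294 (16.8%) passed at an adjusted p of 0.05 (quasi-likelihood test of edgeR, adjusted after Benjamini and Hochberg), 1127 of them higher (8.27%) and 1167 lower (8.56%) in the libraries labelled siAirn. Airn itself was near the limit of detection. It had 7 and 3 counts in the NC libraries and 11 and 9 in the libraries labelled siAirn, a ratio of 2.02 (exact binomial 95% interval 0.903 to 4.83, counting error only). The targeted transcript was thus not detectably lower in the libraries labelled siAirn, and every direction given here follows the labels only. The summed level of 13 endothelial markers lay between 11909.8 and 12274.7 CPM (counts scaled to library size) in NC and between 7628.2 and 8634.1 CPM in the libraries labelled siAirn, and none of these markers was at 0. 10 of the 13 were lower by the test.

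The members spanned a wide range of levels. Levels of different genes were compared in FPKM, which accounts for transcript length and library size. In NC, Nrp2 had the highest level at 126 ± 3.22 FPKM (mean ± SD, n = 2), followed by Kdr at 94.9 ± 9.45 FPKM and Flt4 at 93.1 ± 2.43 FPKM. Pgf stood at 60.7 ± 9.64 FPKM, Vegfb at 51.5 ± 1.29 FPKM and Nrp1 at 37.0 ± 4.84 FPKM. The lowest levels were those of Vegfa (18.7 ± 0.530 FPKM), Vegfc (12.8 ± 1.18 FPKM) and Flt1 (7.25 ± 0.764 FPKM). In this order, only the neighbours Kdr and Flt4 overlapped between their libraries. In the libraries labelled siAirn, Flt4 had 60.38 and 67.45 FPKM and no longer overlapped with Kdr, which had a mean of 104 ± 13.3 FPKM. Nrp1 (42.0 ± 4.84 FPKM) and Vegfb (38.1 ± 4.33 FPKM) were in the reverse order of NC, with overlapping libraries. The ranks of the other members were those of NC.

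**Figure D1:**
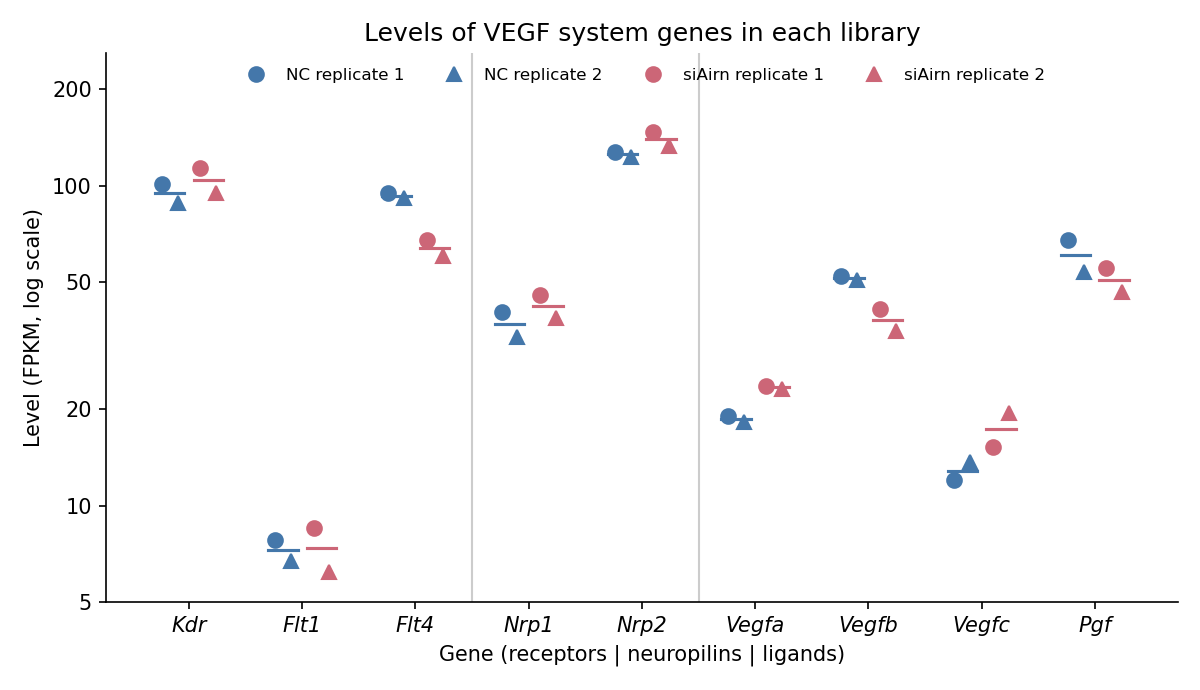
Level of each VEGF system gene in each library, in FPKM on a log scale. Points are libraries, circles replicate 1 and triangles replicate 2, and short lines are group means. The points of Flt4 and Vegfb labelled siAirn sit below both NC points, and those of Vegfa sit above them.

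3 of the 9 members (33.3%) passed an adjusted p of 0.05 in edgeR's quasi-likelihood test, against 16.8% of all genes tested. Flt4 and Vegfb were lower and Vegfa was higher in the libraries labelled siAirn. By role, 1 of 3 receptors, 0 of 2 neuropilins and 2 of 4 ligands passed. Of the neuropilins, 0 had an unadjusted p under 0.05, and 0 passed with DESeq2 or limma. 4 of the 9 had an unadjusted p under 0.05, against 34.0% of all genes. The median log2 difference was 0.02 over the members and 0.00 over all genes. The groups did not overlap for 5 of the 9 members (Flt4, Nrp2, Vegfa, Vegfb and Vegfc), against 62.7% of all genes. The threshold of the study, a fold change over 1.4 with an unadjusted p under 0.05, was passed by Flt4 alone, against 9.96% of all genes.

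**Figure D2:**
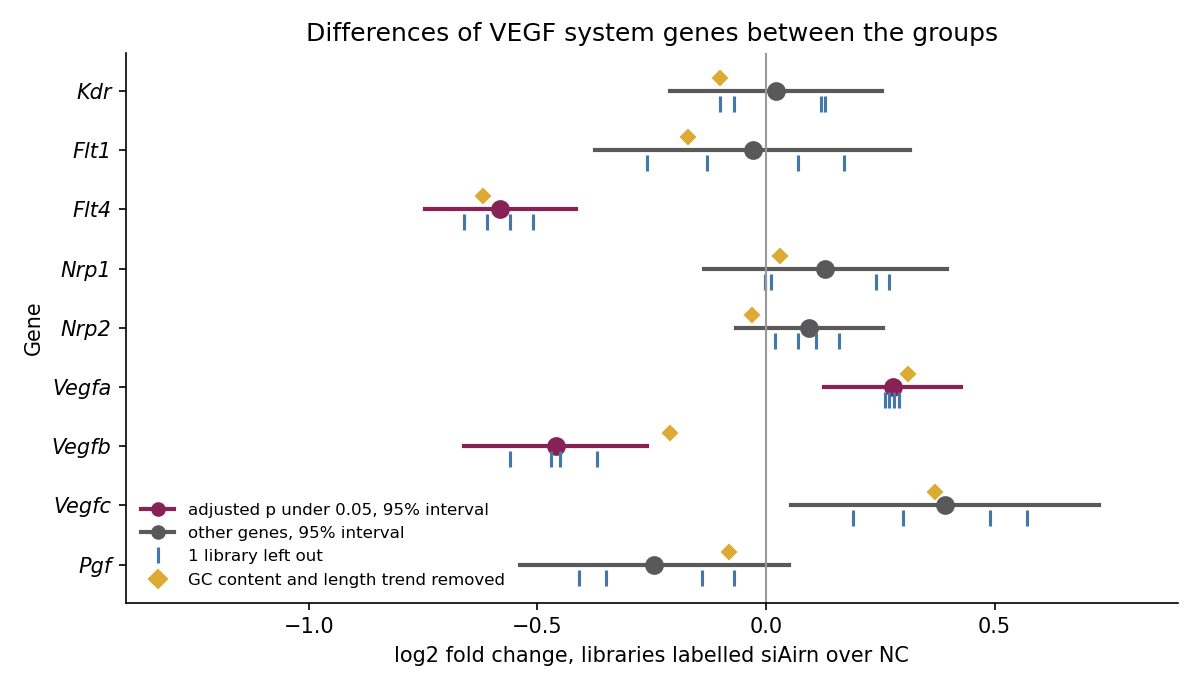
log2 fold change of each VEGF system gene, libraries labelled siAirn over NC. Circles with lines are the estimates and 95% intervals of edgeR's quasi-likelihood fit, ticks are the estimates with 1 library left out, and diamonds are the estimates after removal of trends with GC content and length. Flt4, at -0.58, stays below 0 in each of these, whereas the ticks of Kdr and Flt1 lie on both sides of 0.

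Among the receptors, Flt4 was the one that fell. Flt4 had 548 and 531 CPM in the NC libraries and 379 and 342 CPM in the libraries labelled siAirn. Both of the latter were below both NC libraries. The level fell from 539 ± 12.3 CPM to 361 ± 25.6 CPM (mean ± SD, n = 2), to 0.669 of NC (95% interval 0.596 to 0.750), a log2 difference of -0.58 with an SE of 0.0701 (adjusted p = 0.00683, edgeR's quasi-likelihood test). Flt4 is among the genes the study chose to display from these libraries, so its fall is no independent evidence of a direction. Fewer endothelial cells and less Flt4 RNA per cell cannot be told apart in bulk samples. Beside this fall, the endothelial markers had a median log2 difference of -0.58. They did not shift uniformly, with differences from -1.33 for Clec4g to -0.05 for Tek, and Tek, Emcn and Stab2 did not pass. The part of the marker shift in the Flt4 result was not tested.

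Kdr, the main signalling receptor for VEGF-A, did not follow Flt4. Its level was 630 and 552 CPM in NC and 647 and 552 CPM in the libraries labelled siAirn. The libraries of the 2 groups overlapped almost fully, and replicate 1 was the higher one in both. The log2 difference was 0.02 (95% interval -0.21 to 0.25, adjusted p = 0.901, edgeR's quasi-likelihood test). A fall as large as that of Flt4 lies outside this interval. Its sign turned in some other fits of the same data, which ranged from -0.18 to 0.13. The highest value was that of the limma fits on FPKM and of the fit without siAirn replicate 2.

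Flt1, the receptor shared by VEGF-A, VEGF-B and placental growth factor, had 48.1 and 41.6 CPM in NC and 50.4 and 37.4 CPM in the libraries labelled siAirn. The NC libraries lay between those labelled siAirn. Its log2 difference was -0.03 (95% interval -0.37 to 0.32, adjusted p = 0.908, edgeR's quasi-likelihood test), and its sign turned when single libraries were left out. The table holds 1 row per gene, so the soluble and the membrane form of VEGFR1 were not told apart.

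Ratios within a library do not depend on its scaling. The Flt4 to Kdr count ratio was 0.870 and 0.962 in the NC libraries and 0.585 and 0.620 in the libraries labelled siAirn. The groups did not overlap, with a log2 difference of -0.60 (two-sided exact permutation test, p = 0.333, the smallest p that 2 against 2 libraries allow). The Flt1 to Kdr ratio was 0.0764 and 0.0754 in NC and 0.0779 and 0.0678 in the libraries labelled siAirn, and these overlapped (log2 difference -0.06, exact p = 1). In FPKM this ratio was 0.0767 and 0.0761 in NC and 0.0752 and 0.0655 in the libraries labelled siAirn, which did not overlap (log2 difference -0.12, exact permutation p = 0.333). As a share of the summed FPKM of the receptors, Flt4 made up 46.4% and 49.1% in NC and 35.6% and 37.5% in the libraries labelled siAirn. The share of Kdr was 49.7% and 47.3% in NC and 59.9% and 58.7% in the libraries labelled siAirn. Flt1 held between 3.60% and 4.5% in every library. The summed FPKM of the receptors was 204 and 186 in NC and 189 and 161 in the libraries labelled siAirn, which overlapped.

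**Figure D3:**
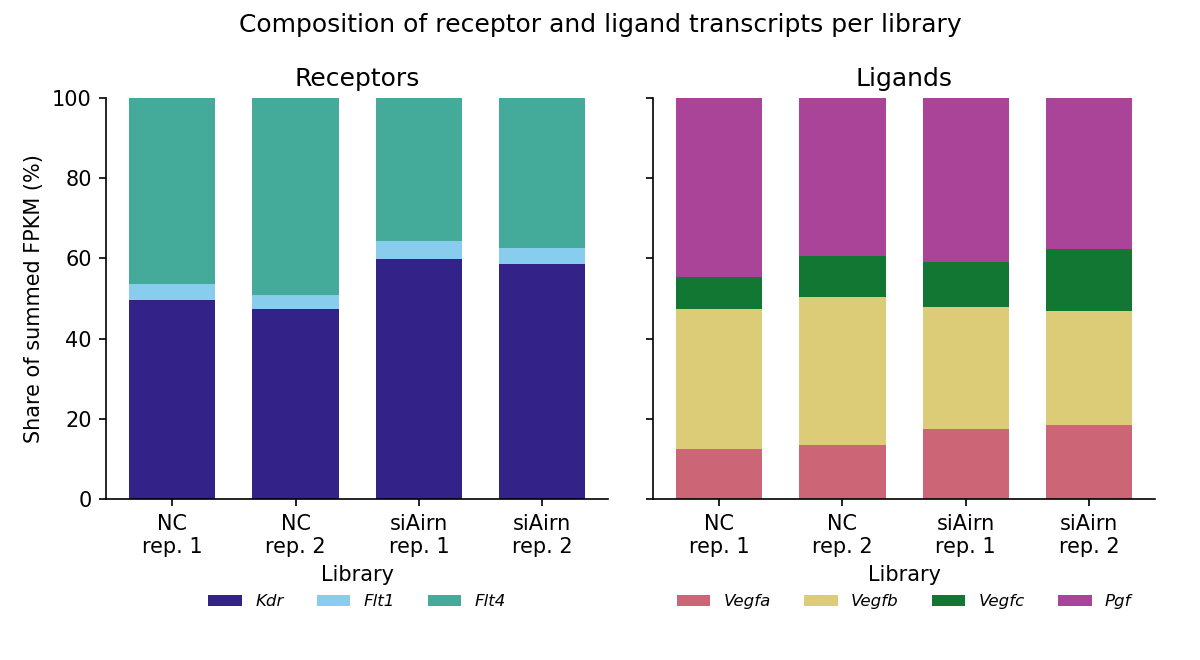
Share of each gene in the summed FPKM of the receptors (left) and of the ligands (right), in percent, with 1 bar per library. The Flt4 share is smaller in both libraries labelled siAirn (35.6% and 37.5%) than in NC (46.4% and 49.1%), and the Vegfa share is larger (17.5% and 18.6% against 12.6% and 13.4%).

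The promoters of Flt4 and Kdr are shown because the levels of these receptors came apart. The sequences run 5′ to 3′ on the strand of the gene, from 250 bases before to 50 bases after the annotated start, and come from RefSeq on GRCm38.p6, in which all 9 members had an entry. Capitals mark GC boxes, the letters GGGCGG or, on the other strand, CCGCCC. The Flt4 window is chr11:49609429-49609728 on the plus strand and the Kdr window is chr5:75978406-75978705 on the minus strand.
Flt4: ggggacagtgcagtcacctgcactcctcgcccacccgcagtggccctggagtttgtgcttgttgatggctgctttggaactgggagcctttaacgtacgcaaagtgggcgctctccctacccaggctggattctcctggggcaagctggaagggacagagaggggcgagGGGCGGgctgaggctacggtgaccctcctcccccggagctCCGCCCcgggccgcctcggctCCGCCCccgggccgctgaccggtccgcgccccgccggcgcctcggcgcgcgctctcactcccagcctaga
Kdr: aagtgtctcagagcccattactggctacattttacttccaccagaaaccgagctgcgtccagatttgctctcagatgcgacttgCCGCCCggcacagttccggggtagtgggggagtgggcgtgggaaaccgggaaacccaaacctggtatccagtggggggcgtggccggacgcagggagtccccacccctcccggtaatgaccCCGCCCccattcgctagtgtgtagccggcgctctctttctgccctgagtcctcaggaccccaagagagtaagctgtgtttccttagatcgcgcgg
The Flt4 window held 3 GC boxes at 70.3% G and C, and the Kdr window held 2 at 60.7%. At least 1 GC box was found in 35.7% of the 32851 promoter windows in the RefSeq table, and at least 3 in 10.7%. The median window had 52.7% G and C. The core letters of ETS factors, GGAA or TTCC, a family that includes regulators of endothelial genes, occurred 2 times in the Flt4 window and 5 times in the Kdr window, and in 96.0% of all windows. The letters CACCC or GGGTG, bound by Krüppel-like factors, occurred 1 time in each and in 57.5% of all windows. Matches were counted on both strands, and no GGAA or CACCC match overlapped a GC box in the windows of the members. A match of letters is not a bound site.

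Neither neuropilin passed the test, and both 95% intervals spanned no change. Nrp2, the partner of VEGFR3 and the most abundant member, had 824 and 800 CPM in NC and 908 and 825 CPM in the libraries labelled siAirn. The groups did not overlap, by a narrow margin. The log2 difference was 0.09 (95% interval -0.07 to 0.26, adjusted p = 0.371, edgeR's quasi-likelihood test). It was 0.02 without siAirn replicate 1 and 0.16 without siAirn replicate 2. Nrp1, the partner of VEGFR2, had 232 and 192 CPM in NC and 251 and 213 CPM in the libraries labelled siAirn, which overlapped. Its log2 difference was 0.13 (95% interval -0.14 to 0.40, adjusted p = 0.456, edgeR's quasi-likelihood test). The microRNA gene Mir1903 lies on the same strand under 0.818% of the exonic bases of Nrp1. The Nrp2 to Nrp1 count ratio was 3.55 and 4.16 in NC and 3.62 and 3.87 in the libraries labelled siAirn, with the latter inside the range of NC (log2 difference -0.04, exact permutation p = 1). Nrp2 made up between 76.0% and 78.6% of the summed FPKM of the neuropilins in every library. That sum was 168 and 157 in NC and 193 and 171 in the libraries labelled siAirn, which did not overlap.

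The ligands moved in different directions. Vegfa, which encodes the main angiogenic factor of the family, had 62.4 and 60.9 CPM in NC and 74.9 and 74.5 CPM in the libraries labelled siAirn. The replicates lay close together and the groups did not overlap. Vegfa rose from 61.7 ± 1.04 CPM to 74.7 ± 0.277 CPM (mean ± SD, n = 2), a fold change of 1.21 (95% interval 1.09 to 1.34) and a log2 difference of 0.28 with an SE of 0.0631 (adjusted p = 0.0291, edgeR's quasi-likelihood test). The log2 difference was also 0.28 with DESeq2, with an adjusted p of 0.0722, and the adjusted p ranged from 0.00305 to 0.167 over all alternatives.

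Vegfb, whose product binds VEGFR1 and is linked to fatty acid handling, fell. It had 56.1 and 57.0 CPM in NC and 43.8 and 38.4 CPM in the libraries labelled siAirn. Both of the latter were below NC. Its level fell from 56.6 ± 0.639 CPM to 41.1 ± 3.80 CPM (mean ± SD, n = 2), to 0.727 of NC (95% interval 0.633 to 0.835), a log2 difference of -0.46 with an SE of 0.0846 (adjusted p = 0.0172, edgeR's quasi-likelihood test). At 1.38-fold lower it stood just under the fold threshold of the study and did not pass it. The Vegfb transcript had the highest GC content of the members, at 62.6%, against 41.9% to 56.6% for the others. After trends with GC content and length were removed in each library, a correction chosen after seeing the data, the difference of Vegfb was -0.21 and the call was lost (adjusted p = 0.177, edgeR's quasi-likelihood test, the highest of a range from 0.000159 over all alternatives). Flt4 (-0.62) and Vegfa (0.31) kept their calls under this correction.

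Vegfc, which encodes the ligand of VEGFR3, had 21.4 and 24.4 CPM in NC and 26.2 and 34.0 CPM in the libraries labelled siAirn. The groups did not overlap, but the libraries labelled siAirn were far apart. Its log2 difference was 0.39 (95% interval 0.06 to 0.73), with an unadjusted p of 0.0283 and an adjusted p of 0.102 in edgeR's quasi-likelihood test. Its deposited counts were not whole numbers, between 366.61 and 601.58. Without siAirn replicate 1, the difference was 0.57 and passed the test (adjusted p = 0.00977, edgeR's quasi-likelihood test). Without siAirn replicate 2 the difference was 0.19 (adjusted p = 0.396, edgeR's quasi-likelihood test). Over all alternatives its adjusted p ranged from 0.00465 to 0.396.

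Pgf, which encodes placental growth factor, a ligand of VEGFR1, had 96.6 and 76.2 CPM in NC and 78.2 and 67.6 CPM in the libraries labelled siAirn. The second NC library lay between those labelled siAirn. The log2 difference was -0.24 (95% interval -0.54 to 0.05, adjusted p = 0.215, edgeR's quasi-likelihood test). It was -0.07 without NC replicate 1, -0.14 without siAirn replicate 2 and -0.41 without NC replicate 2.

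The order of the ligands by level was the same in both groups, from Pgf over Vegfb and Vegfa to Vegfc, but their shares differed. The summed FPKM of the ligands was 151 and 136 in NC and 135 and 124 in the libraries labelled siAirn. These sums did not overlap, by a narrow margin (136.4 against 135.14). The FPKM summed over all genes was 541132 and 560412 in NC and 523853 and 521875 in the libraries labelled siAirn. The ligand sums were not scaled to these totals, so their difference between the groups is not read as a result. Vegfa made up 12.6% and 13.4% of the summed ligand FPKM in NC and 17.5% and 18.6% in the libraries labelled siAirn. The share of Vegfb was 34.7% and 37.1% in NC and 30.5% and 28.2% in the libraries labelled siAirn. Vegfc held 7.95% and 10.02% in NC and 11.2% and 15.7% in the libraries labelled siAirn. The share of Pgf overlapped between the groups, at 44.7% and 39.5% in NC and 40.8% and 37.5% in the libraries labelled siAirn. Relative to their receptor, the ligands of Flt1 differed in direction. The Vegfa to Flt1 count ratio was 1.30 and 1.46 in NC and 1.49 and 1.99 in the libraries labelled siAirn (log2 difference 0.32, exact permutation p = 0.333). The Vegfb to Flt1 ratio was 1.17 and 1.37 in NC and 0.869 and 1.03 in the libraries labelled siAirn (log2 difference -0.42, exact permutation p = 0.333). The Pgf to Flt1 ratio was 2.01 and 1.83 in NC and 1.55 and 1.81 in the libraries labelled siAirn (log2 difference -0.20, exact permutation p = 0.333). None of these 3 ratios overlapped between the groups. With 1 library left out, their log2 differences kept their sign but ranged from 0.11 (without siAirn replicate 2) to 0.53 (without siAirn replicate 1) for Vegfa, from -0.54 to -0.30 for Vegfb and from -0.30 (without siAirn replicate 2) to -0.09 (without siAirn replicate 1) for Pgf. The Vegfc to Flt4 ratio was 0.0390 and 0.0461 in NC and 0.0692 and 0.0993 in the libraries labelled siAirn. This was the largest difference of the 7 ratios computed (log2 difference 0.97, exact permutation p = 0.333). As 0.333 is the smallest p possible here, no ratio could pass a threshold of 0.05, before or after adjustment over the 7.

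The promoters of the ligand genes that passed the test are given in the same form. The Vegfb window is chr19:6987602-6987901 and the Vegfa window, the one of its 2 annotated starts that lies further upstream, is chr17:46032328-46032627, both on the minus strand.
Vegfb: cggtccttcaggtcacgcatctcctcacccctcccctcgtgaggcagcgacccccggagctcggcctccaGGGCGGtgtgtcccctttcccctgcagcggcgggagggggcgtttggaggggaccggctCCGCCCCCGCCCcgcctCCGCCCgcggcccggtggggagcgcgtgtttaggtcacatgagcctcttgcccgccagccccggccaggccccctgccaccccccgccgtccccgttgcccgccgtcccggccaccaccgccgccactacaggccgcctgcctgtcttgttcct
Vegfa: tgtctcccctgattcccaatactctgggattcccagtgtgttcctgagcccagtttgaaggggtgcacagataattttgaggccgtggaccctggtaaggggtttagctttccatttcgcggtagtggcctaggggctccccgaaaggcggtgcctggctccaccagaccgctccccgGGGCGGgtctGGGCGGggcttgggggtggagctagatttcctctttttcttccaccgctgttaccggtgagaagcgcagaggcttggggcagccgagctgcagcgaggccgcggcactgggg
The Vegfb window held 4 GC boxes at 75.3% G and C, the highest GC content among the windows of the members. At least 4 GC boxes were found in 5.49% of all windows. The Vegfa window held 2 GC boxes at 62.0% G and C, and GGAA or TTCC occurred 6 times in it and 2 times in that of Vegfb. The core of the hypoxia response element, ACGTG or CACGT, was in neither window and in 19.6% of all windows. It was found 1 time at the other start of Vegfa. The windows of the remaining members held from 0 to 5 GC boxes.

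The calls of the members rested on both NC libraries. Without NC replicate 1 or without NC replicate 2, 0 members passed in edgeR's quasi-likelihood test, and of all genes 40 and 0 passed, with 3506 and 3106 at an unadjusted p under 0.05. With one or the other library labelled siAirn left out, Flt4 and Vegfb passed and Vegfa did not. Of all genes, 2410 passed without siAirn replicate 1 and 1446 without siAirn replicate 2. The log2 differences of Flt4 (-0.66 to -0.51), Vegfa (0.26 to 0.29) and Vegfb (-0.56 to -0.37) kept their direction whichever library was left out. These fits leave 1 library in a group, which is assumed to vary like the other group.

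The genes with the pattern nearest to each receptor were found by the distance of log2 CPM, centred over the 4 libraries. The genes compared averaged 50 CPM or more, without those whose symbols begin with BGIG, LOC or Gm and a digit. For Kdr the nearest were Cars (distance 0.0245), Rnf31 (0.0343) and Mid2 (0.0345) of 4715 genes. For Flt1 they were Nrros (0.0477), Uaca (0.0665) and Gimap8 (0.0804) of 4716 genes. Mfng (0.0152), Pink1 (0.0171) and Cpne2 (0.0246) were nearest to Flt4 of 4715 genes. The log2 differences of these 3 genes lay between -0.59 and -0.57, beside -0.58 for Flt4. This closeness follows from the selection by distance over the same libraries and is no further evidence. With 4 libraries, many genes share any such pattern.

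The wider VEGF pathway was described by 8 lists with 117 genes in all. They were written from general knowledge but with earlier results of these data known, so their shares of calls are descriptive only. Of these, 111 were tested and 28 (25.2%) passed, 12 higher and 16 lower, against 16.8% of all genes. Their median log2 difference was -0.02, against 0.00 over all genes. Without NC replicate 1 or 2 this count was 0 and without siAirn replicate 2 it was 17.

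Of 15 partners of the VEGF receptors, 2 were higher and 4 lower (40.0% called, against 16.8% of all genes), with a median log2 difference of -0.14. Cdh5, the junctional cadherin that holds VEGFR2 at cell contacts, had 2625 and 2322 CPM in NC and 1794 and 1524 CPM in the libraries labelled siAirn. It fell by 0.58 on the log2 scale (adjusted p = 0.0134, edgeR's quasi-likelihood test), and is also among the endothelial markers. Dab2 (-0.52) and Epn1 (-0.43), adaptors of receptor endocytosis, were lower too, the latter named after its value was seen. Efnb2, which encodes the ephrin that promotes uptake of VEGFR2 and VEGFR3, rose by 0.46 and Itgav, an integrin subunit, by 0.60. Ptprb, a phosphatase that restrains VEGFR2, had a difference of -0.14 and did not pass (adjusted p = 0.411, edgeR's quasi-likelihood test). It passed at -0.42 with trends of GC content and length removed (adjusted p = 0.0483, the same test). Ptpn1, another phosphatase of the list, was lower by 0.26 (adjusted p = 0.0356, edgeR's quasi-likelihood test). It was named after its value was seen, and its call was lost with these trends removed.

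Of the 31 tested genes that relay the signal inside the cell, 5 passed and all 5 were lower, and this share of 16.1% was close to the 16.8% of all genes. DESeq2 called 5 of the list and limma 2. The median log2 difference was -0.00. Shb, an adaptor bound to VEGFR2, had 57.4 and 58.8 CPM in NC and 36.6 and 36.4 CPM in the libraries labelled siAirn, a difference of -0.67 (adjusted p = 0.00514, edgeR's quasi-likelihood test). Nos3, the endothelial nitric oxide synthase, fell from 32.6 ± 3.70 CPM to 22.3 ± 2.98 CPM (n = 2), by 0.55 on the log2 scale (adjusted p = 0.0302, edgeR's quasi-likelihood test). The other 3 were the kinase genes Mapk3 (-0.38), Map2k2 (-0.25) and Akt1 (-0.21), named after their values were seen. Plcg1, the phospholipase that VEGFR2 activates, did not pass, with a difference of -0.08.

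Of 17 tested genes known to respond to VEGF, 3 were higher and 1 lower, with a median of 0.05. This was 23.5%, against 16.8% of all genes, and DESeq2 called 2 of the list. Ptgs2, the inducible cyclooxygenase, rose from 13.2 ± 1.43 CPM to 22.9 ± 0.676 CPM (n = 2), by 0.79 on the log2 scale (adjusted p = 0.00946, edgeR's quasi-likelihood test). Adamts1, a secreted protease that binds VEGF-A, was higher by 0.53 (0.33 without siAirn replicate 2) and the homeobox gene Hlx lower by 0.23, a call that held in 4 of 15 alternatives. Egr1 (0.29), an immediate early gene, was the other one that was higher and was named after its value was seen. Dll4 (-0.12), Esm1 (-0.04) and Apln (-0.46), genes of endothelial tip cells, did not pass.

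Class 3 semaphorins and plexins had the highest share of calls among the 8 lists. Many of their signals, though not all, pass through neuropilins and compete with or complement those of VEGF. Of 10 tested, 5 were higher and 2 lower, with a median of 0.37, against 8.27% higher and 8.56% lower of all genes. DESeq2 called 6 of this list and limma 4, in which Sema3e and Plxna4 were not called. Sema3e had 8.52 and 11.7 CPM in NC and 16.2 and 25.7 CPM in the libraries labelled siAirn. It rose by 1.05 on the log2 scale (adjusted p = 0.0309, edgeR's quasi-likelihood test), and Sema3d rose by 0.71. Without siAirn replicate 2 these differences were 0.68 and 0.46. Sema3f, a ligand of Nrp2, fell from 92.7 ± 2.79 CPM to 55.6 ± 3.18 CPM (n = 2), by 0.74 on the log2 scale (adjusted p = 0.00496, edgeR's quasi-likelihood test), and the receptor subunit gene Plxna4 was lower by 0.59. Sema3c (1.36, at 0.906 ± 0.126 and 2.35 ± 0.201 CPM), Sema3a (0.67) and Plxna1 (0.60) were the remaining ones that were higher, and were named after their values were seen.

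Of 10 genes of the VEGF-C and lymphatic arm, 1 was higher and 2 were lower, with a median of -0.04, against 8.27% higher and 8.56% lower of all genes. Ccbe1, which promotes the processing of VEGF-C, had 29.0 and 28.9 CPM in NC and 38.9 and 55.3 CPM in the libraries labelled siAirn, a difference of 0.70 (adjusted p = 0.0284, edgeR's quasi-likelihood test). It was 0.43 without siAirn replicate 2. Lyve1, a hyaluronan receptor of lymphatic and sinusoidal endothelium, was at 223.9 and 223.0 CPM in NC and 140.6 and 109.6 CPM in the libraries labelled siAirn. It fell by 0.84 on the log2 scale (adjusted p = 0.00853, edgeR's quasi-likelihood test), and is also an endothelial marker and a gene the study displayed. Sox18, a transcription factor of lymphatic specification, was lower by 0.83. Prox1, the defining factor of lymphatic endothelium, stood at 3.36 ± 0.611 CPM in NC and 4.36 ± 0.0913 CPM in the libraries labelled siAirn and did not pass. Vegfd, the other ligand of VEGFR3, was under 1.2 CPM in every library.

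0 of 8 oxygen sensing genes passed in either test of edgeR, DESeq2 or limma, against 16.8% of all genes in edgeR's quasi-likelihood test. 1 had an unadjusted p under 0.05, against 34% of all genes. Hif1a and Epas1, which encode subunits of hypoxia-inducible factors that act on Vegfa, had log2 differences of 0.15 and 0.17. Of 12 tested endothelial transcription factors, Ets1 was higher by 0.34, whereas Erg (-0.44) and Elk3 (-0.28), both of the ETS family, were lower, with a median of -0.19. These 3 of 12 stand against 16.8% of all genes, and DESeq2 called 5 and limma 1. Of the PDGF system and related receptor kinases, 0 of 8 passed in edgeR's quasi-likelihood test, against 16.8% of all genes, with a median of -0.02. In this list, 3 had an unadjusted p under 0.05, against 34% of all genes. The likelihood-ratio test of edgeR called 3 of the list, beside 3140 of all 13628 genes tested. DESeq2 called 2 and limma 1. Without siAirn replicate 2, Erg was at -0.29, and the calls of Erg, Elk3, Ets1, Hlx, Nos3 and Plxna4 were lost. When trends with GC content and length were removed, 14 of the 28 pathway calls were kept, 14 were lost and 3 were gained. Among the genes of the naming rule that lost their call, differences stayed at -0.40 for Erg, 0.46 for Adamts1 and -0.46 for Nos3. They were smaller for Itgav (0.35), Sema3e (0.79), Sema3d (0.44), Ccbe1 (0.51), Ets1 (0.21) and Hlx (-0.05). Of the genes named after their values were seen, Sema3c lost its call at 1.17, as did Ptpn1 at -0.21, Mapk3 at -0.19, Map2k2 at -0.08 and Akt1 at -0.06.

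**Figure D4:**
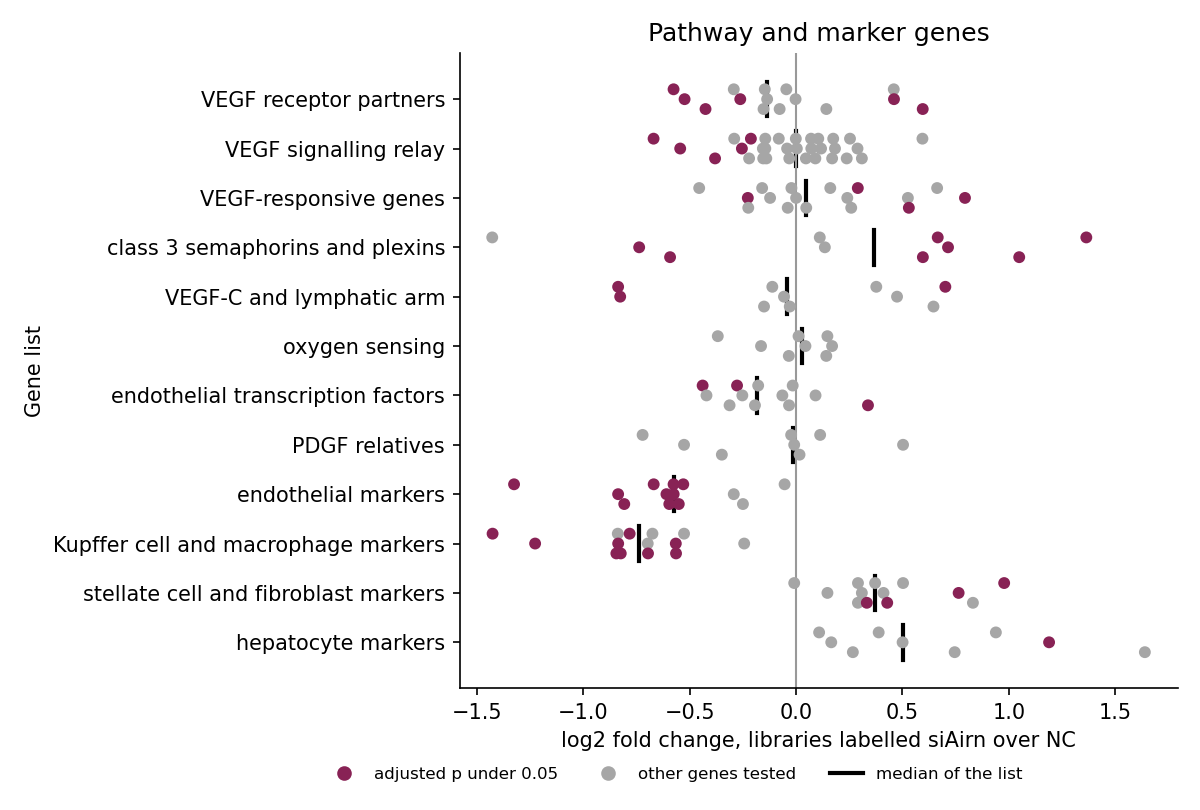
log2 fold change of the genes tested in each list, libraries labelled siAirn over NC, for the 8 pathway lists and the 4 marker lists with at least 5 genes tested. Dark points passed an adjusted p of 0.05 in edgeR's quasi-likelihood test, grey points did not, and black lines are medians. Pathway genes lie on both sides of 0, whereas all endothelial and macrophage markers tested lie below it.

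Markers of macrophages and of stellate cells differed between the groups, read against 8.27% of all genes higher and 8.56% lower. Of 14 tested Kupffer cell and macrophage markers, 9 passed and all 9 were lower (5 passed with DESeq2 and 5 with limma), with summed levels of 289 to 356 CPM in NC and 183 to 220 CPM in the libraries labelled siAirn. Of these markers, Timd4 was at 0 in some libraries. Of 13 stellate cell and fibroblast markers, 4 passed and all 4 were higher (6 passed with DESeq2 and 4 with limma), with sums of 1207 to 1424 CPM in NC and 1470.0 to 1911 CPM in the libraries labelled siAirn, and none at 0. Of 9 tested hepatocyte markers, 1 was higher by the test (11.1%, close to the share of all genes). All 9 had a positive log2 difference, with a median of 0.50, beside 0.37 for the stellate cell list. The hepatocyte sums were 514 to 669 CPM in NC and 735 to 951 CPM in the libraries labelled siAirn. These did not overlap, and Tat was at 0 in some libraries. Cholangiocyte markers summed to 17.6 to 23.8 CPM and lymphocyte markers to 2.82 to 5.03 CPM over all libraries, and 0 of them passed in edgeR's quasi-likelihood test or DESeq2. In each of these last lists, 1 gene had an unadjusted p under 0.05, against 34% of all genes. 1 lymphocyte marker passed with limma and in the likelihood-ratio test of edgeR. The isolation of the LSECs had included selection with anti-CD146 beads. The part of these other cell types in the results for Flt4, Vegfa, Vegfb and the pathway genes was not tested.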

How the data were processed

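RNA-seq of 4 libraries of mouse primary LSECs was analysed, 2 NC and 2 siAirn, grouped by their labels. Single-end reads of 50 bases were made on the BGISEQ-500. The submitters' processing notes name BWA, Bowtie2, RSEM and hg19, a human build. The annotation and the use of strand are not given in the sources used here. The authors deposited 1 table with estimated counts, which are not normalized and of which 76.5% to 76.8% are whole numbers. The second kind of value is not named in its header and was read as FPKM computed by the authors, since the transcript length that it implies differed between libraries by a median of 0.314% over 6389 genes. The group means that the authors deposited were not used.

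These estimated counts were rounded to integers, and the analysis used edgeR 4.0.16 under R 4.3.3. TMM factors (0.985 to 1.02) scaled CPM, filterByExpr with default settings kept 13628 genes, and glmQLFit and glmQLFTest compared the groups with no covariate, with Benjamini-Hochberg adjustment over all genes tested. The common biological coefficient of variation was 0.0754. Intervals of log2 differences come from the same fit. The binomial interval covers counting error only. The members and lists were chosen with earlier results of these data known. The genes named are the members, Airn, the 2 largest rises and 2 largest falls of each pathway list with an adjusted p under 0.05 and a mean of at least 5 CPM, and the 3 genes nearest to each receptor. Other genes are marked as named after their values were seen, or are given as examples that did not pass. The GC content and the shares of sequence under other genes came from GENCODE M21.

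In a simulation of NC against siAirn with 13489 genes, the test found 29 of 50 genes changed 1.4-fold, 47 of 50 changed 2-fold, and all 50 at each of 4-fold and 8-fold, with 9 unchanged genes called. The alternatives were DESeq2 1.42.0, upper-quartile normalization, other filters, the likelihood-ratio test, limma 3.58.1 on log2(FPKM + 1) and log2(FPKM + 0.1), a replicate block, removal of the trend with length, a stricter fold change (2) or unadjusted p (0.01), and fits without each single library. Removal of trends with both GC content and length (splines with 5 degrees of freedom) was added after seeing the data.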

Additional observations from a re-analysis of the deposited data

How the results depend on the processing

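The main count of 3 members became 5 with the replicate block, 0 with limma on log2(FPKM + 1) without a filter, and between 0 and 3 with 1 library left out. That limma fit called 0 of all genes, with 4418 at an unadjusted p under 0.05, whereas limma with a mean FPKM of at least 1 called 1743, and DESeq2, which gave no adjusted p for 3638 genes, called 1742. Of all genes (2294), the replicate block called 4841, removal of the length trend 1323, removal of GC and length trends 1071, and the fits without 1 library between 0 and 2410. Of the pathway genes (28), the replicate block called 60, limma without a filter 0, removal of GC and length trends 17, and the fits without 1 library between 0 and 36. Members past the threshold of the study (1) were 0 at a fold change over 2, and between 1 and 3 without 1 library, with 2 without NC replicate 2 and 3 without siAirn replicate 1. With the replicate block, Vegfc (0.39, adjusted p = 0.00465) and Pgf (-0.24, adjusted p = 0.00711) passed in edgeR. Deviations of libraries with the same number correlated at 0.233, but with 2 pairs and no shared source in the labels they share only a number. The sign turned for members that did not pass: Kdr with the length trend (-0.18) and GC and length trends (-0.10) removed, Nrp1 (-0.05) and Nrp2 (-0.12) with the length trend removed, Nrp2 (-0.03) with both removed, and Flt1 at 0.01 in the 3 limma fits. Without 1 library, Kdr ranged from -0.10 to 0.13, Flt1 from -0.26 to 0.17, Nrp1 from -0.0013 to 0.27, the log2 Flt1 to Kdr ratio from -0.16 to 0.04, and Nrp2 to Nrp1 from -0.15 to 0.08. Over all alternatives, Flt4 ranged from -0.77 to -0.51 (adjusted p from 1.31e-09 to 0.0875), Vegfa from 0.24 to 0.32 (0.00305 to 0.167), and Vegfb from -0.56 to -0.21 (0.000159 to 0.177) in edgeR, DESeq2 and limma, with no change of sign. The call of Vegfb was also lost with the length trend removed (-0.31, adjusted p = 0.0807). The Airn ratio lay between 1.4 (without NC replicate 2) and 3.47 (without NC replicate 1). The cause of these shifts was not tested. Precision differed between members, with an SE of 0.142 for Vegfc against 0.0631 for Vegfa, and smaller differences than that of Vegfc passed.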
